A study of Mus musculus with 8 samples.

Results

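The genes described here are 9 genes of natural killer (NK) receptors and of the proteins with which lymphocytes kill: Klrd1, Klrc1, Klrk1, Klrg1, Gzmb, Gzma, Prf1, Nkg7 and Ccl5. They were chosen by symbol, and each was measured by 1 probe set that the platform table assigns to that symbol alone, so that 9 of 19938 named genes are covered. The choice was made with results of these arrays known, among them the high Klrd1 signal of RORγt-deficient cells, so the RORγt comparison of these 9 genes is given as a description, with no test and no count of calls.

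The data are 8 mouse expression arrays of naive CD4+ T cells cultured toward the Th17 fate with anti-CD3, anti-CD28 and interleukins 1, 6 and 23. The SRC-3 experiment held SRC-3-deficient cells, whose source is labelled f/f mice, and SRC-3 wild-type cells. The RORγt experiment held RORγt-deficient cells from RORγt -/- mice and RORγt wild-type cells. Each group had 2 biological replicates, which the labels do not trace to separate mice, so p-values reflect only the variation among these cultures. The labels name no Cre driver, no deleted exon and no age.

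NK cells and cytotoxic T cells kill by releasing granules that hold perforin and granzymes, and C-type lectin receptors on their surface set the threshold for release. CD94 pairs with NKG2A into an inhibitory receptor for the non-classical MHC molecule Qa-1, while NKG2D activates on stress-induced ligands. CD4 T cells cultured as Th17 cells are known for cytokine secretion rather than killing, although activated CD4 T cells can make granzyme B.

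The promoters of Gzmb, Nkg7 and Prf1 are shown because these are the genes among the 9 that are known for granule killing and exceeded the background level (defined below) in at least 1 group. The sequences are RefSeq promoter windows on build GRCm38.p6, from 250 bases before to 50 bases after the start site, and 6 of the 9 genes matched an entry. Capitals mark letters found on either strand of 4 searched motifs: TGTGGT, the RUNX core, GGTGTGA, a T-box core, AGGTCA, the core of ROR elements, and TGANTCA, the AP-1 site.
Gzmb, chr14:56262285-56262584, minus strand: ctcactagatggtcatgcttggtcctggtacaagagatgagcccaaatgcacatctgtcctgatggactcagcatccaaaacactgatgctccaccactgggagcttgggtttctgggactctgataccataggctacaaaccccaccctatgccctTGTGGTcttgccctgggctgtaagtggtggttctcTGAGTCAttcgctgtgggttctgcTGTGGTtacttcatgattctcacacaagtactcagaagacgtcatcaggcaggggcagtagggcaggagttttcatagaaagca
Nkg7, chr7:43436888-43437187, plus strand: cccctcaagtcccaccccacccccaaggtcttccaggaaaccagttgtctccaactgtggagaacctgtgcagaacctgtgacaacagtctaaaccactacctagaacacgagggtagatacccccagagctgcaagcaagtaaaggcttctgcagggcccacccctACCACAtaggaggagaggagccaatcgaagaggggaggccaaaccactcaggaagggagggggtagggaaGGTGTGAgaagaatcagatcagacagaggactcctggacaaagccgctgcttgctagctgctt
Prf1, chr10:61297586-61297885, plus strand: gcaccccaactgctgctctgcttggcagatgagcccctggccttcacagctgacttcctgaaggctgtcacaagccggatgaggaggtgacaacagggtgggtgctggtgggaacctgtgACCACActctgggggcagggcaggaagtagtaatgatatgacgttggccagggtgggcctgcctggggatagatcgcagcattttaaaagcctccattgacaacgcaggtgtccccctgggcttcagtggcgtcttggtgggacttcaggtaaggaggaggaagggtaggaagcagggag
The Gzmb window held 2 RUNX matches and 1 AP-1 match, the Nkg7 window 1 RUNX and 1 T-box match, and the Prf1 window 1 RUNX match, none of them overlapping. The windows of Klrc1, Klrk1 and Gzma each held 1 RUNX match, and that of Klrk1 also 1 AP-1 match, so all 6 windows held the RUNX letters. Of 32851 mouse promoter windows of the same length, 16.8% held the RUNX letters, 3.98% the T-box letters, 7.81% the AP-1 letters and 16.3% the ROR letters, which none of the 6 windows held. A match is only a run of letters and was not tested as a binding site.

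Signals are log2 intensities normalised by the submitters with RMA. A background level of 7.86 was taken as the 90th percentile of the signals of 26 genes restricted to tissues such as liver, eye and testis, whose signals lay between 4.65 and 8.31. Of all deposited values, 50.2% lay at or under this level. By this level 4 of the 9 genes lay near background in all 4 groups: Klrc1, Klrk1, Klrg1 and Gzma. Klrd1 exceeded it only in RORγt-deficient cells and Prf1 only in the 2 groups of the RORγt experiment, while Gzmb, Nkg7 and Ccl5 exceeded it in every group. Only Klrd1, Gzmb, Prf1, Nkg7 and Ccl5 passed the filter on low signal, which asks for 7.85, the median of all values, on at least 2 arrays, and Klrd1 passed through the RORγt-deficient arrays alone.

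**Figure D1:**
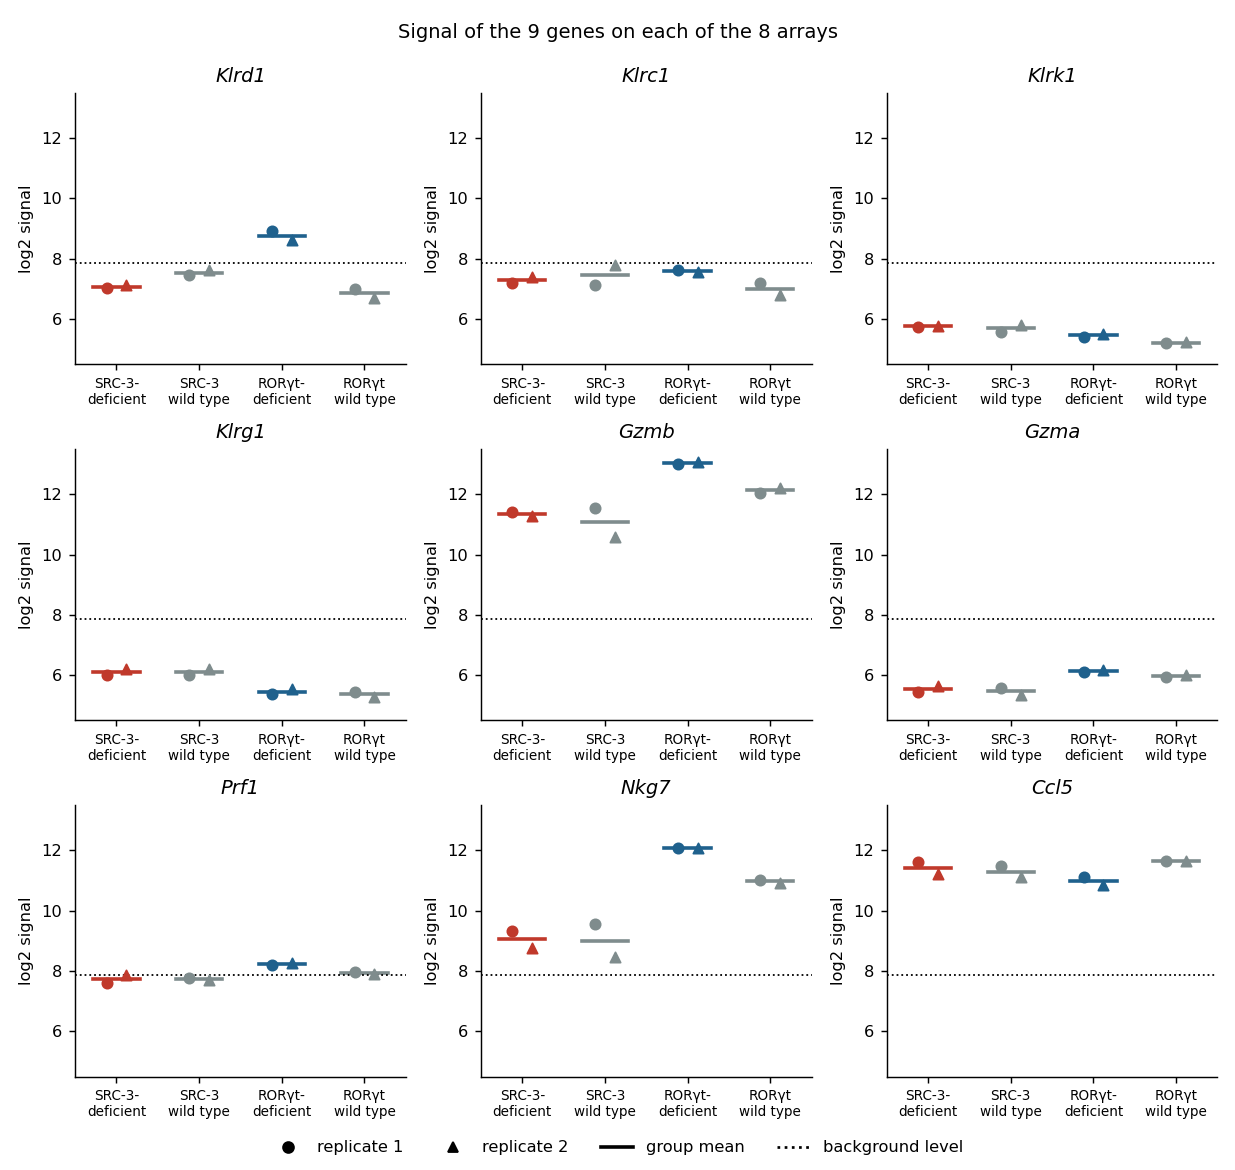
Log2 signal of each of the 9 genes (vertical axes, the same range in all panels) on the 8 arrays, by group; circles are replicate 1, triangles replicate 2, bars the group mean of 2 arrays and the dotted line the background level of 7.86. Klrd1 stands above that line in RORγt-deficient cells only, and Gzmb and Nkg7 are highest there.

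The cultures were checked for other cells and for sex before the comparisons. The CD4 T cell genes Cd3e, Cd3d, Cd3g, Cd4, Cd5 and Cd28 gave signals between 11.58 and 13.56 on every array. Of 7 NK cell markers, Itga2 alone had a group mean above background, in every group but RORγt wild type. It gave 7.89 and 8.20 in RORγt-deficient, 7.80 and 7.76 in RORγt wild-type, 8.48 and 8.43 in SRC-3-deficient and 8.52 and 8.54 in SRC-3 wild-type cells. The other NK markers lay under the background level on every array. Ncr1, Klrb1c and Klra8 lay between 4.60 and 5.93 and Eomes between 6.34 and 7.13. Tyrobp lay between 6.93 and 7.45 and Fcgr3 between 7.23 and 7.54. The log2 of the summed signal of the NK markers was 9.56 to 9.74 in RORγt-deficient and 9.57 to 9.59 in RORγt wild-type cells, and 9.76 to 9.83 in SRC-3-deficient and 9.78 to 9.83 in SRC-3 wild-type cells. Of the CD8 T cell genes, Cd8a lay between 7.06 and 7.29, whereas Cd8b1 gave 9.14 and 9.13 in RORγt-deficient, 8.92 and 8.998 in RORγt wild-type, 8.91 and 8.75 in SRC-3-deficient and 8.54 and 8.29 in SRC-3 wild-type cells. Cd8b1 was thus higher on both deficient arrays than on both wild-type arrays in each experiment, and its part in the results was not tested. The γδ T cell list had 1 measured gene of 7, Sox13, at 8.34 to 8.53, and 0 of 5 myeloid markers and 1 of 3 measured B cell markers (Cd79b) were above background. In such bulk RNA, fewer cells of a type and less RNA per cell cannot be told apart.

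**Figure D2:**
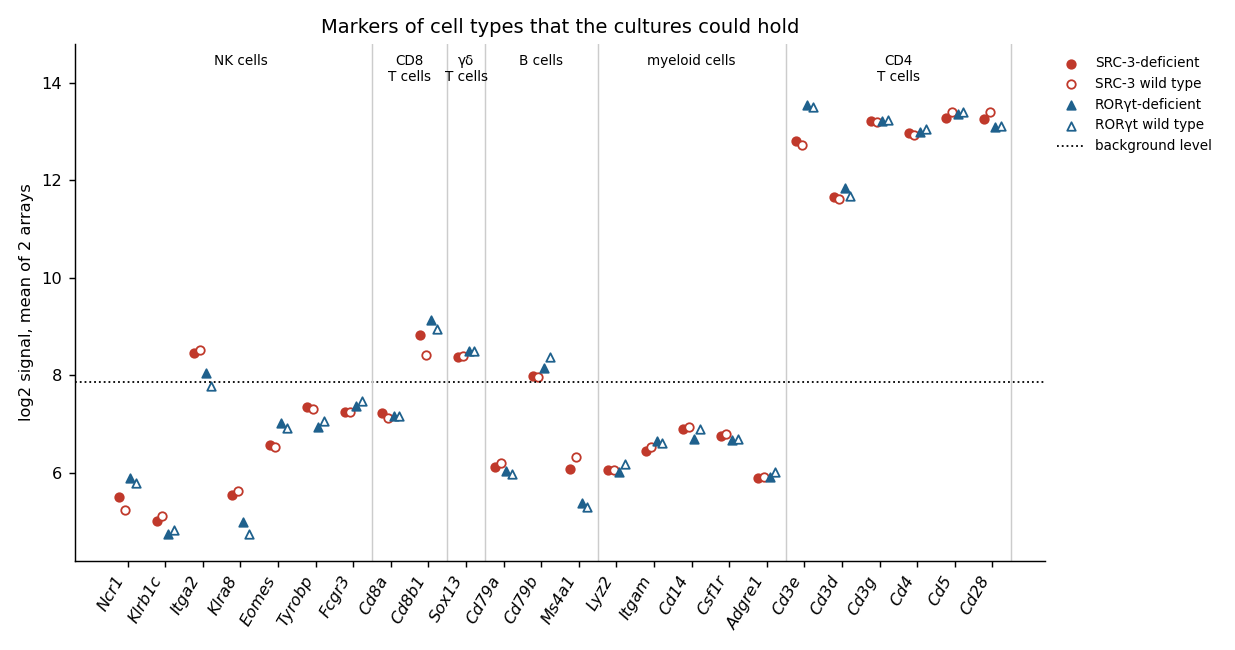
Mean log2 signal of 2 arrays per group (vertical axis) for markers of NK, CD8 T, γδ T, B, myeloid and CD4 T cells (horizontal axis); filled symbols are deficient groups, open symbols wild-type groups and the dotted line the background level of 7.86. All 6 CD4 T cell genes lie between 11.58 and 13.56, and of the NK cell markers only Itga2 reaches the line, in every group but RORγt wild type.

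Sex moved with the RORγt genotype. Xist, the RNA of the inactive X chromosome of females, gave 6.37 and 6.08 in RORγt-deficient and 12.55 and 12.76 in RORγt wild-type cells, so sex and genotype cannot be told apart in that comparison. In the SRC-3 experiment, Xist was 7.10 and 13.60 in SRC-3-deficient and 13.65 and 13.52 in SRC-3 wild-type cells, so deficient replicate 1 alone had the male level. Ncoa3, the gene of SRC-3, gave 11.15 and 10.97 in SRC-3-deficient and 11.76 and 11.53 in SRC-3 wild-type cells. The transcript of RORγt itself was not analysed here, whereas Il17a, a cytokine gene that depends on it, gave 7.52 and 7.16 in RORγt-deficient and 11.63 and 11.27 in RORγt wild-type cells.

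The RORγt comparison asks which transcripts change when the nuclear receptor that directs the Th17 fate is missing. Among the receptor genes, Klrd1, which encodes CD94, had signals of 8.92 and 8.61 in RORγt-deficient cells, against 7.01 and 6.71 in RORγt wild-type cells. Both deficient arrays stood apart from the other 6 arrays of the study, none of which exceeded 7.61. The difference was 1.90 on the log2 scale (SE 0.13, n = 2 per group), a ratio of 3.74. Since the wild-type signal lay in the background range, the size of the ratio is uncertain, and the deficient mean was 1.86-fold the background level.

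Klrc1, which encodes the CD94 partner NKG2A, gave 7.63 and 7.57 in RORγt-deficient and 7.18 and 6.81 in RORγt wild-type cells. The groups did not overlap, but all 4 signals were under the background level (difference 0.60, SE 0.20). The signals of its close relatives Klrc2 and Klrc3 differed by 0.39 and 0.35 in the same direction, also under that level, and shared hybridisation among these similar transcripts was not tested. Klrk1, the gene of the activating receptor NKG2D, gave 5.41 and 5.52 in RORγt-deficient cells, against 5.20 and 5.23 in RORγt wild-type cells. Klrg1, an inhibitory receptor of terminally differentiated effector cells that binds cadherins, gave 5.37 and 5.54 in RORγt-deficient and 5.45 and 5.29 in RORγt wild-type cells. Its groups overlapped, and both genes lay far under the background level, so that of the 4 receptor genes Klrd1 alone exceeded it.

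Of the granule genes, Gzmb, which encodes the protease granzyme B, gave 12.99 and 13.08 in RORγt-deficient and 12.05 and 12.21 in RORγt wild-type cells. The groups did not overlap, and the difference was 0.91 (SE 0.26), a ratio of 1.88. Nkg7, a granule membrane protein needed for efficient degranulation, gave 12.07 and 12.08 in RORγt-deficient cells, against 11.02 and 10.93 in RORγt wild-type cells. Its difference was 1.10 (SE 0.32), a ratio of 2.15, and each pair of arrays lay within 0.10 of one another. The SEs of both genes come from the spread over all 8 arrays, in which the SRC-3 wild-type pair had an SD of 0.68 for Gzmb and 0.77 for Nkg7 while the other pairs had SDs between 0.01 and 0.40. Prf1, the gene of the pore-forming protein perforin, gave 8.22 and 8.26 in RORγt-deficient and 7.98 and 7.90 in RORγt wild-type cells. The groups did not overlap, but the difference was 0.30 (SE 0.09), and the wild-type mean exceeded the background level by only 0.08. Gzma, which encodes granzyme A, stayed in the background range with 6.11 and 6.16 in RORγt-deficient cells, against 5.94 and 6.01 in RORγt wild-type cells.

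Ccl5, the gene of the chemokine RANTES, which cytotoxic and memory T cells store and release, ran the other way. It gave 11.12 and 10.86 in RORγt-deficient cells, against 11.64 and 11.65 in RORγt wild-type cells. The groups did not overlap, and the deficient mean was 0.634 of the wild-type mean (difference −0.66, SE 0.16). Ccl5 thus had the one negative difference among the 9 genes. Of the 8 positive differences, those of Klrc1, Klrk1, Klrg1 and Gzma came from signals near background in both groups. The median difference over all genes tested was 0.00. No result is read from this count, as the comparison had a part in choosing the genes.

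In the RORγt comparison 7 of the 9 genes had both deficient arrays above both wild-type arrays, 1 had them below and 1 overlapped. Such a separation was seen for 70.0% of all genes tested, with 35.8% higher and 34.2% lower in RORγt-deficient cells. The genes tested were above the low-signal filter, whereas 4 of the 9 genes were below it. Nothing is read from these counts, since this comparison had a part in choosing the genes.

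**Figure D3:**
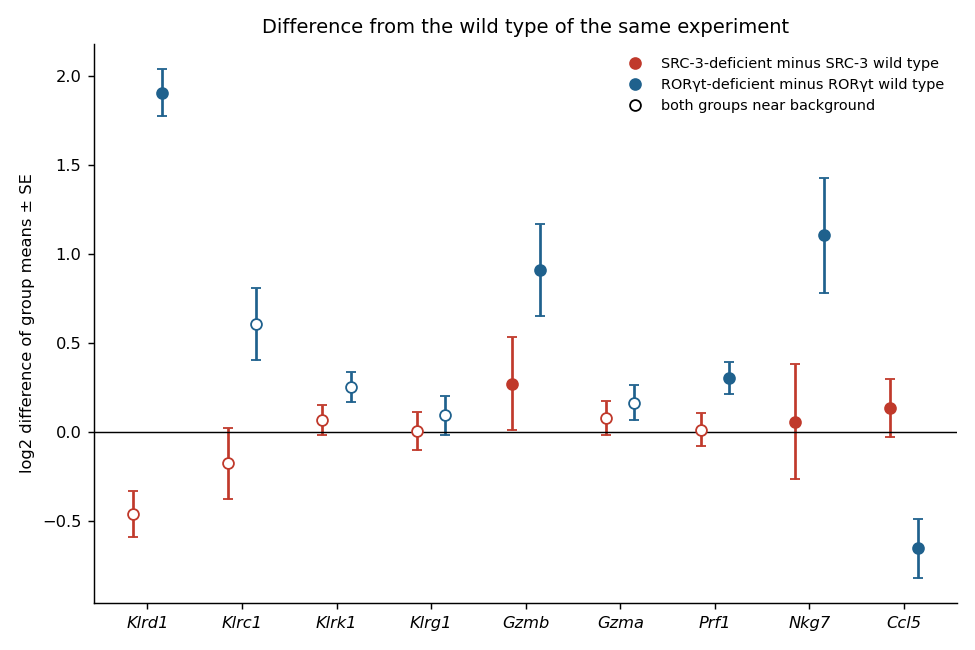
Difference of the group means on the log2 scale (vertical axis, deficient minus wild type of the same experiment) for the 9 genes, with the SE of the fit over 8 arrays; red is the SRC-3 and blue the RORγt comparison, and open symbols mark genes near background in both groups. Klrd1 has the highest value, 1.90, and Ccl5 the lowest, −0.66, in the RORγt comparison, and the filled SRC-3 values lie between 0.05 and 0.27.

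The SRC-3 comparison asks which transcripts depend on this nuclear receptor coactivator under the same culture. None of the 9 genes passed the limma threshold there, where 0.225% of all genes did, and 1 of them, Klrd1, had an unadjusted p under 0.05, as 12.5% of all genes had. Klrd1 gave 7.01 and 7.13 in SRC-3-deficient and 7.46 and 7.61 in SRC-3 wild-type cells. The groups did not overlap, but all 4 signals were under the background level (difference −0.46, SE 0.13, limma adjusted p = 0.215). The other 8 genes had overlapping groups, and 37.2% of all genes did not overlap. These shares are over genes above the low-signal filter, and 4 of the 9 genes were below it.

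For each of the 8 genes with overlapping groups, at least 1 pair of replicates lay further apart than the genotype means did. With 2 arrays per group this follows from the overlap itself and adds nothing to it. Nkg7 gave 9.34 and 8.77 in SRC-3-deficient cells, against 9.55 and 8.45 in SRC-3 wild-type cells (difference 0.05, SE 0.32, limma adjusted p = 0.972). The gap of 1.10 between the SRC-3 wild-type arrays was reached by 0.117% of all genes, whose median gap was 0.10. Gzmb gave 11.41 and 11.28 in SRC-3-deficient and 11.56 and 10.59 in SRC-3 wild-type cells (difference 0.27, SE 0.26, limma adjusted p = 0.752), and its wild-type gap of 0.97 was reached by 0.180% of genes. Without SRC-3 wild-type replicate 1 the Gzmb difference was 0.75 and passed the threshold (limma adjusted p = 0.0341), and without SRC-3 wild-type replicate 2 it was −0.21. The same omissions moved Nkg7 to 0.60 and −0.49, neither past the threshold.

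Ccl5 gave 11.62 and 11.23 in SRC-3-deficient and 11.48 and 11.11 in SRC-3 wild-type cells (difference 0.13, SE 0.16, limma adjusted p = 0.815). For Nkg7, Gzmb and Ccl5 the arrays numbered 1 exceeded those numbered 2 in both genotypes, whereas for Klrd1, Klrc1, Klrk1 and Klrg1 they were lower in both, and Prf1 and Gzma differed in sign between the genotypes. Klrc1 gave 7.18 and 7.38 in SRC-3-deficient and 7.13 and 7.79 in SRC-3 wild-type cells. Prf1 gave 7.61 and 7.88 in SRC-3-deficient and 7.77 and 7.70 in SRC-3 wild-type cells (difference 0.01, SE 0.09). Klrk1 lay between 5.58 and 5.80, Klrg1 between 6.00 and 6.22 and Gzma between 5.36 and 5.65 on the 4 arrays, all in the background range.

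The wild-type cultures of the experiments also differed from each other, among the 9 genes most in Nkg7 and Gzmb. Nkg7 averaged 10.97 in RORγt wild-type cells and 8.999 in SRC-3 wild-type cells, a ratio of 3.93, and 0.144% of all genes differed at least as far. Gzmb averaged 12.13 in RORγt wild-type and 11.07 in SRC-3 wild-type cells, a ratio of 2.08 reached by 3.24% of genes. Klrd1 was lower in RORγt wild-type cells, with 6.86, than in SRC-3 wild-type cells, with 7.53, and both are in the background range. For the genes other than Nkg7 and Gzmb, between 9.93% (Klrg1) and 61.0% (Prf1) of all genes tested differed at least as far, and 12.7% for Klrd1. Experiment, mouse line and array processing cannot be told apart here.

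Other genes of the cytotoxic programme were taken from 5 lists that leave out the 9 genes. Of 77 measured genes, 37 passed the low-signal filter. In RORγt-deficient cells 7 of these rose, 6 fell and 24 did not pass the test (limma, adjusted p under 0.05), which is 35.1% called beside 19.4% of all genes (10% higher and 9.37% lower). The median log2 fold change over the 77, of which 40 were below the filter, was 0.00. It was also 0.00 over all genes tested, but these were all above the filter, so the sets are unlike. In SRC-3-deficient cells 0 of the 37 passed by limma, beside 0.225% of all genes. An unadjusted limma p under 0.05 was seen for 8 of the 37, beside 1394 of all 11128 genes (12.5%). The SRC-3 median over the 77 was 0.02. By list, the RORγt median was 0.09 for granule and killing genes, 0.01 for NK receptors and adaptors, −0.06 for regulators and cytokine receptors, −0.16 for chemokines and their receptors and 0.37 for ligands, with dim genes included. In the SRC-3 comparison the medians of these lists were 0.05, −0.08, −0.08, −0.03 and 0.13 in the same order. Leaving out 1 array of the RORγt experiment left 1 gene higher without RORγt-deficient replicate 1, RORγt wild-type replicate 1 or RORγt wild-type replicate 2, and 3 without RORγt-deficient replicate 2. The count of lower genes was 3 without RORγt-deficient replicate 1 or RORγt wild-type replicate 1.

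Granule and killing genes held 4 of the 7 rises: 4 of 14 rose, 2 fell and 8 did not pass. Ctsw, which encodes the lysosomal protease cathepsin W of cytotoxic lymphocytes, gave 11.28 and 11.42 in RORγt-deficient cells, against 10.29 and 10.34 in RORγt wild-type cells. It rose 2.05-fold (log2 fold change 1.04, SE 0.15, limma adjusted p = 0.00485). Tnfsf10, the gene of the death ligand TRAIL, gave 8.95 and 8.90 in RORγt-deficient and 8.03 and 7.97 in RORγt wild-type cells and rose by 0.93 (SE 0.16, limma adjusted p = 0.00902). Stx11, a syntaxin of the fusion machinery of lytic granules, gave 10.44 and 10.62 in RORγt-deficient and 11.23 and 11.13 in RORγt wild-type cells and fell by 0.65 (limma adjusted p = 0.00321). The call of Tnfsf10 was lost leaving out any array of the experiment other than RORγt-deficient replicate 2 (limma adjusted p from 0.059 to 0.0705), while those of Ctsw and Stx11 held in each case. Chosen after their values were seen, Rab27a, a GTPase of granule docking (0.48, limma adjusted p = 0.0193), and Serpinb9, the inhibitor of granzyme B (0.71, 0.0311), rose. Srgn, the granule proteoglycan serglycin, likewise chosen, fell by 0.20 (limma adjusted p = 0.0448). The calls of Rab27a, Serpinb9 and Srgn were lost leaving out any array of the RORγt experiment. Gzmc was below the filter at 7.31 and 7.44 in RORγt-deficient and 6.57 and 6.81 in RORγt wild-type cells, and without a filter it rose by 0.69 (limma adjusted p = 0.0143), where 4.72% of all genes rose. That call was lost leaving out any 1 of the 4 RORγt arrays (limma adjusted p from 0.0539 to 0.12).

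Of 25 other NK receptor and adaptor genes measured, 22 were below the filter, 1 of the remaining 3 fell and 0 rose in RORγt-deficient cells. That gene was Cd226, the activating receptor DNAM-1, with 8.94 and 9.01 in RORγt-deficient and 9.64 and 9.79 in RORγt wild-type cells (log2 fold change −0.74, SE 0.07, limma adjusted p = 0.0014). Klrb1f, a C-type lectin of the NKR-P1 family, gave 7.83 and 8.02 in RORγt-deficient and 7.40 and 7.30 in RORγt wild-type cells (0.57, limma adjusted p = 0.0633). In the SRC-3 experiment it gave 7.65 and 8.05 in SRC-3-deficient and 8.52 and 9.01 in SRC-3 wild-type cells (−0.91, SE 0.18, limma adjusted p = 0.0968), a difference that passed without SRC-3 wild-type replicate 1 (−1.16, limma adjusted p = 0.0458). The difference between the comparisons was past the threshold for Klrb1f (1.48, limma adjusted p = 0.0394), as it was for 1.67% of all genes. The group means of Klrb1f lay under the background level in RORγt wild-type (7.35) and SRC-3-deficient cells (7.85). Of the 4 measured ligands of these receptors, all were below the filter. The cadherin gene Cdh2 rose by 0.49 without a filter (limma adjusted p = 0.0206), a call lost leaving out any 1 of the 4 RORγt arrays (limma adjusted p from 0.074 to 0.154).

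Among 16 regulators and cytokine receptors above the filter, 3 rose, 3 fell and 10 did not pass in RORγt-deficient cells. Stat4, the transducer of IL-12 signals, gave 12.14 and 12.03 in RORγt-deficient and 11.66 and 11.61 in RORγt wild-type cells and rose by 0.45 (SE 0.09, limma adjusted p = 0.015). Both chains of the IL-18 receptor, chosen after their values were seen, also rose, Il18r1 by 0.61 and Il18rap by 0.43 (limma adjusted p = 0.0176 and 0.0186). Il18rap lay under the background level on all arrays of this experiment, at 7.64 and 7.78 in RORγt-deficient and 7.28 and 7.28 in RORγt wild-type cells. It passed the low-signal filter through the SRC-3 arrays alone. The calls of Il18r1 and Il18rap were lost leaving out any array of the RORγt experiment. Zeb2, a repressor active in terminal effector cells, gave 8.03 and 8.10 in RORγt-deficient and 8.72 and 8.72 in RORγt wild-type cells and fell by 0.66 (limma adjusted p = 0.00175). Il12rb1, a receptor chain shared by IL-12 and IL-23, fell by 0.52 (limma adjusted p = 0.00722), and Id2, an inhibitor of E proteins, fell by 0.37 (limma adjusted p = 0.00706). The calls of Stat4 and Il12rb1 were lost leaving out any array of the experiment other than RORγt-deficient replicate 2 (limma adjusted p from 0.0779 to 0.112, and from 0.0511 to 0.0606). That of Id2 was lost without replicate 1 of either group (0.0635 without RORγt-deficient and 0.0583 without RORγt wild-type replicate 1).

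Tbx21, Runx3 and Eomes, factors known for switching on granule genes, are named after their values were seen. Tbx21 and Runx3 did not pass in either comparison, and Eomes was below the low-signal filter. Their part in the results was not tested. Tbx21, which encodes T-bet, gave 10.04 and 10.23 in RORγt-deficient and 9.89 and 9.70 in RORγt wild-type cells (log2 fold change 0.34, limma adjusted p = 0.177). It gave 8.99 and 8.73 in SRC-3-deficient and 9.62 and 9.17 in SRC-3 wild-type cells (−0.53, limma adjusted p = 0.243). Runx3 gave −0.16 in the RORγt comparison (limma adjusted p = 0.207), and Eomes stayed under the background level on all 8 arrays.

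Of the 4 chemokine and receptor genes above the filter, 0 passed in either comparison by limma, with 0 at an unadjusted p under 0.05 in the RORγt and 1 in the SRC-3 comparison. Below it, Xcl1, the gene of lymphotactin, rose by 0.47 in RORγt-deficient cells in the fit without a filter (limma adjusted p = 0.0232), with 7.53 and 7.22 in RORγt-deficient and 6.95 and 6.85 in RORγt wild-type cells. That call was lost leaving out any array of the experiment other than RORγt-deficient replicate 2 (limma adjusted p from 0.095 to 0.172). In the SRC-3 comparison 0 listed genes passed, and the genes of each list with the smallest p were, beside Klrb1f, Il12rb2 (−0.50, limma adjusted p = 0.108), Ccr1 (−0.81, 0.106), Id2 (−0.26, 0.141), Crtam (0.35, 0.169), Tnfsf10 (0.59, 0.203), H60b (0.37, 0.294), S1pr5 (0.24, 0.355), Serpinb9 (0.33, 0.498) and Cdh1 (0.10, 0.646). Of these, Ccr1, Crtam, H60b, S1pr5 and Cdh1 lay under the low-signal filter.

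**Figure D4:**
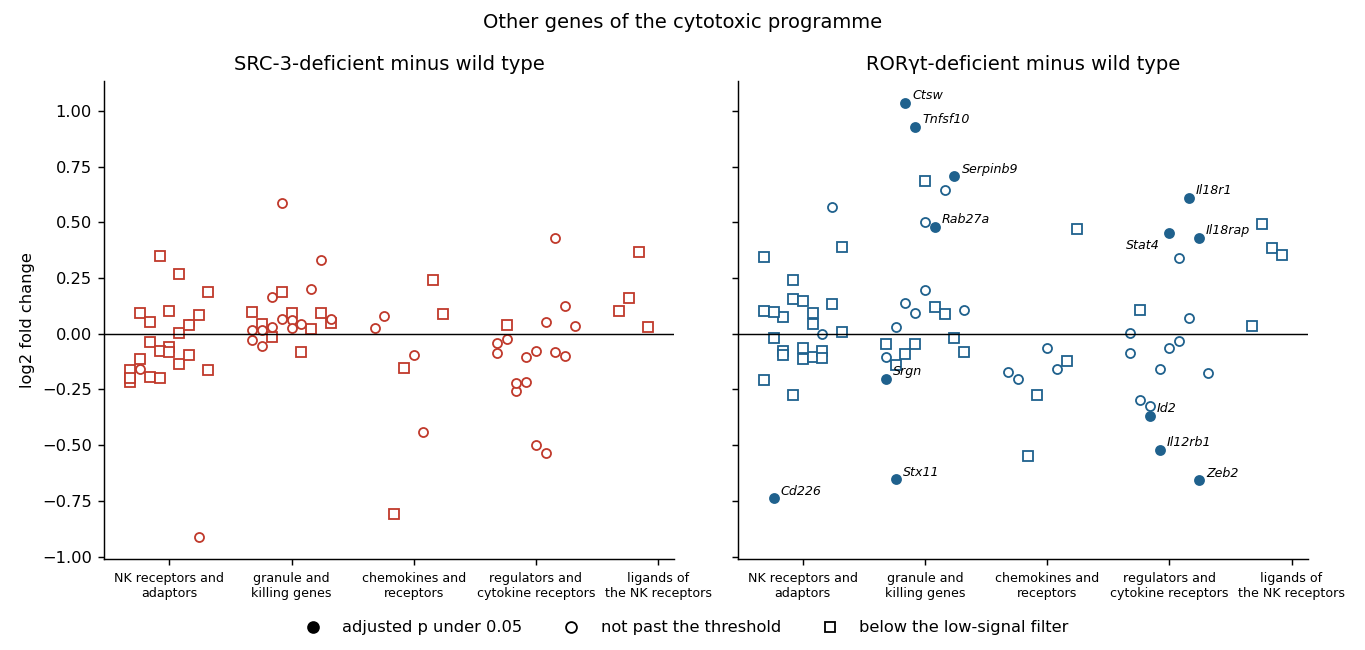
Log2 fold change (vertical axis) of 77 other genes of the cytotoxic programme by list, SRC-3 comparison on the left and RORγt comparison on the right; filled circles passed a limma adjusted p of 0.05, open circles did not, and squares were below the low-signal filter. In the RORγt comparison 7 genes rose and 6 fell, and in the SRC-3 comparison none passed.

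The genes whose signals followed Klrd1 most closely were Ppm1m, a protein phosphatase (r = 0.988), Ssh2, a cofilin phosphatase (0.987), Gsap (0.982), Grk6, a kinase of G protein-coupled receptors (0.980), and Plcg1, phospholipase C gamma (0.979). These are Pearson correlations over 8 arrays after centring on the mean of each experiment, given without a test. Of 11127 genes, 816 reached 0.8 and 216 reached 0.9. Ppm1m gave 10.24 and 10.21 in RORγt-deficient and 9.96 and 9.88 in RORγt wild-type cells. Among the 9 genes, the others above the filter correlated with Klrd1 at 0.80 (Prf1), 0.70 (Nkg7), 0.63 (Gzmb) and −0.84 (Ccl5). After the centring, the Klrd1 signals mostly reflect its RORγt difference (1.90, against −0.46 in the SRC-3 comparison). The correlations thus largely restate RORγt differences, which had a part in choosing the genes, and nothing is read from them.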

How the data were processed

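The 8 arrays were Affymetrix Mouse Gene 1.0 ST. The deposited values are log2 signal intensities per probe set. Per the submitters' processing notes they come from RMA and Affymetrix Expression Console, with versions not given in the sources used here. RMA corrects background, quantile-normalises and pools probes, and it compresses differences near background. The table held 35556 probe sets, of which the platform table gives 1 symbol to 21789, several to 1621 and none to 12146. Symbols were checked by gene ID against RefSeq on GRCm38, which changed 0. The brightest probe set stood for a gene, and 11128 genes with at least 2 arrays at 7.85 were tested. In R 4.3.3, limma 3.58.1 (lmFit, eBayes) fitted 4 group means over the 8 arrays, two-sided, with Benjamini-Hochberg adjustment over all genes and a threshold of 0.05. Genes below the filter were fitted without it. The fit was tested on simulated data with each experiment's own spread, where more of the SRC-3 calls were false than the threshold allows, so SRC-3 calls are less certain than their adjusted p. Genes were named by a rule: the 9 genes, up to 4 called genes per list and comparison by smallest p, or otherwise 2, the 5 genes most like Klrd1, Ncoa3 and the sex markers. The members and lists were chosen with earlier results of these data known. Alternatives changed the normalization, filter, probe sets, arrays, prior, weights and block. No count or depth exists for arrays, whose number limits the precision.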

Additional observations from a re-analysis of the deposited data

Results flagged for a closer look

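The Klrd1 differences had opposite signs in the experiments. Both RORγt-deficient arrays lay above both RORγt wild-type arrays, and both SRC-3-deficient arrays lay below both SRC-3 wild-type arrays. The RORγt difference exceeded the SRC-3 difference by 2.37 on the log2 scale (SE 0.19), which was not tested because the gene was chosen for its RORγt difference, and the SRC-3 signals were under the background level.

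For 4 of the 37 listed genes above the low-signal filter the interaction term of the limma fit passed the threshold, as it did for 1.67% of all genes tested. The RORγt fold change minus the SRC-3 fold change was 1.48 for Klrb1f (SE 0.25, limma adjusted p = 0.0394), which was higher in RORγt-deficient and lower in SRC-3-deficient cells on every array. The Klrb1f means lay under the background level in RORγt wild-type and SRC-3-deficient cells. The same term was −0.58 for Cd226 (limma adjusted p = 0.0402), −0.67 for Stx11 (limma adjusted p = 0.0394) and −0.56 for Zeb2 (limma adjusted p = 0.0394). Cd226 and Zeb2 had both deficient arrays below both wild-type arrays in both experiments, and Stx11 in the RORγt experiment only. The interaction term was not followed under the alternative settings. Sex moved with the RORγt genotype, so sex and genotype cannot be told apart in this term.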

How the results depend on the processing

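In the RORγt comparison 11 of the 17 alternatives leave the 9 differences as they are by construction. Under the other 6 (one median per array, quantile normalization and leaving out 1 RORγt array) all 9 kept their sign, between 1.75 and 2.06 for Klrd1, 0.83 and 0.98 for Gzmb, 1.05 and 1.15 for Nkg7 and −0.79 and −0.52 for Ccl5. Of all genes, 2157 were called in this comparison, 3375 with the 4 arrays alone, 3679 with array weights, 3411 with the replicate block and 472 to 2538 leaving out 1 array. Listed genes that rose numbered 11 with array weights, 11 with the replicate block, 3 with the filter at the 75th percentile and 1 to 9 leaving out 1 array, and those that fell 3 to 6 leaving out 1 array.

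In the SRC-3 comparison all genes called numbered 0 with the 4 arrays alone (limma, 811 at an unadjusted p under 0.05), 10 with array weights, 14 with the filter at the 75th percentile, 47 with a trend and robust prior and 0 to 65 leaving out 1 array (0 without SRC-3 wild-type replicate 2, 65 without replicate 1). With the replicate block 301 of the 11128 genes tested passed, among them 1 of the 9, Klrd1 (−0.46, limma adjusted p = 0.013). All SRC-3 signals of Klrd1 were under the background level, and it passed the low-signal filter through the RORγt-deficient arrays alone. Listed genes that rose with the block numbered 2, Tnfsf10 (limma adjusted p = 0.00671) and Il18r1 (0.0491). Those that fell numbered 3, Klrb1f (0.00556), Il12rb2 (0.0286) and Tbx21 (0.0474). Ccr1, below the filter, also passed (0.0172). No label pairs the arrays: deviations of same-numbered arrays correlated at 0.54 across genes in the SRC-3 and 0.00 in the RORγt experiment. Leaving out 1 array, 0 to 1 of the 9 were called, 0 listed genes rose and 0 to 1 fell.

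Directions of SRC-3 differences not past the threshold turned. Klrg1 gave −0.013 with one median per array and −0.0092 after quantile normalization, and Prf1 −0.0044 with one median per array. Leaving out 1 array, differences ranged from −0.51 to 0.16 for Klrc1, −0.043 to 0.17 for Klrk1, −0.11 to 0.11 for Klrg1, −0.21 to 0.75 for Gzmb, −0.038 to 0.19 for Gzma, −0.12 to 0.15 for Prf1, −0.49 to 0.60 for Nkg7 and −0.063 to 0.33 for Ccl5, each from fewer arrays. The 4 genes near background in every group were also under the median of all values. That median, 7.85, is nearly the background level of 7.86, so this agreement is no separate check.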
